A study of Mus musculus with 6 samples.

Results

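The genes described here are the VEGF (vascular endothelial growth factor) ligands, their receptor tyrosine kinases and the neuropilin co-receptors. They were chosen by symbol, as the 5 ligand genes *Vegfa*, *Vegfb*, *Vegfc*, *Figf* (the older symbol of *Vegfd*) and *Pgf*, the 3 receptor genes *Flt1*, *Kdr* and *Flt4*, and the 2 neuropilin genes *Nrp1* and *Nrp2*. All 10 were among the 24421 genes of the deposited table. RNA was sequenced from 3 *Nhe6*-knockout and 3 wildtype primary cultures, labelled as endothelial cells of the stria vascularis, the vascularised epithelium of the cochlear lateral wall. NHE6 is an endosomal sodium/proton exchanger. The mice were 10 to 12 days old, and the labels give C57BL/6N as the strain background of both genotypes. The study's methods instead name a C57bl6/j background, into which a B6.129P2 line with a targeted *Nhe6* disruption was backcrossed. At least 6 mice were pooled per culture, so a library is a culture and not an animal, and the sex of the mice is not given in the sources used here. Cultures of both genotypes were untreated and grew in a medium supplemented with serum and endothelial cell growth factor, and no group without this supplement was sequenced.

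VEGF-A binds the receptors FLT1 (VEGFR1) and KDR (VEGFR2), and KDR carries most of its signal for endothelial growth and permeability. FLT1 binds VEGF-A tightly, signals weakly and is also made as a soluble form, so it acts largely as a decoy, while VEGF-B and placental growth factor (PlGF) bind FLT1 but not KDR. VEGF-C and VEGF-D bind FLT4 (VEGFR3) and drive lymphatic growth, and neuropilins bind both VEGFs and class 3 semaphorins. In a vessel the ligand usually comes from the cells around it and the receptors sit on the endothelium.

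*Hprt* had 12.7 to 17.7 normalised read counts in the *Nhe6*-knockout and 1833 to 2983 in the wildtype libraries, with the lowest p of all genes (edgeR adjusted p = 0.00138). A normalised read count is the number of reads on a gene, scaled by the TMM method to the mean of the 6 libraries, which held 25587097 to 29126232 reads on genes. On the first principal component wildtype replicate 2 scored 103.5 and the other 5 libraries -27.6 to -6.55, so a fold change or a mean level per length that moved by over 1.5 times without it is given both ways. *Nhe6*-knockout replicates 1 and 2 were much closer to each other than any other pair of a genotype, with a chi-square per degree of freedom of 4.91 against 90.1 to 398, which is still beyond sampling noise, and they were kept as 2 cultures. Of 22 endothelial markers, 10 passed the filter on low counts, *Cldn5*, *Robo4* and *Sox17* were at 0 in every library, *Pecam1* had at most 8 reads and *Tie1* at most 2, while *Eng* and *Tek* had at least 189 normalised counts in each library and *Emcn* had 409.5 in wildtype replicate 2 and 9896 to 18380 elsewhere. *Cdh5* (VE-cadherin) was lower in *Nhe6*-knockout cells (log2 fold change -4.15 ± 0.31 SE, edgeR adjusted p = 0.0133). Of the 10 endothelial markers tested, 6 had log2 fold changes above 0 and 4 below (median 0.37). *Clec14a* lay higher in *Nhe6*-knockout without overlap, at 412.5 to 744 normalised counts against 87.7 to 196 (1.85 ± 0.38, edgeR adjusted p = 0.123). The summed level of the endothelial markers was 683 to 1000 CPM (counts scaled to a fixed library total) in *Nhe6*-knockout and 522 to 924 in wildtype cultures. It came mostly from *Emcn* in every library except wildtype replicate 2. All 15 fibroblast markers passed the filter, with sums of 14600 to 15510 CPM in *Nhe6*-knockout and 12470 to 17760 in wildtype cultures. In wildtype replicate 2 the 15 macrophage markers summed to 5.35 CPM against 56.9 to 142 in the other 5 libraries, and the fibroblast and mural markers *Col1a1* and *Acta2* had 27170 and 16270 normalised counts against at most 1227 and 1204. Markers of these lists went both ways in that library. *Pdgfra* (fibroblast) had 10080 normalised counts there against 13010 to 19050 elsewhere, and *Pdgfrb* (mural) had 7790 against 14680 to 18980. All 16 cell cycle genes had log2 fold changes above 0 (median 2.69), and 14 of them lay higher without overlap, against 10.3% of all genes tested. The cell cycle genes summed to 304 to 552.5 CPM in *Nhe6*-knockout and 94.5 to 143 in wildtype cultures. None had an adjusted p under 0.05 in edgeR, while DESeq2 called 13 of them higher (3.99% of all genes called in either direction) and edgeR without wildtype replicate 2 called 10 higher (2.88%). The 12 melanocyte markers summed to 55.4 to 99.7 CPM in *Nhe6*-knockout and 152 to 196 in wildtype cultures, mostly from *Gpnmb* (1114 to 2030 against 3208 to 5103 normalised counts), while *Tyr*, *Tyrp1* and *Dct* had at most 5.16 normalised counts outside wildtype replicate 3. The 15 mural markers (953 to 997.5 and 777 to 1463), the 10 epithelial markers (2.10 to 26.3 and 0.150 to 41.2) and the 8 glia markers (15.8 to 30.2 and 20.5 to 29.5) overlapped between genotypes. By the study's methods the cultured cells had been purified by fluorescence-activated cell sorting and grown on before use. The part of these marker levels in the results below was not tested. In bulk RNA, fewer cells of a type and less RNA per cell cannot be told apart.

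All 10 VEGF genes passed the filter, and 0 of them had an adjusted p under 0.05 in the quasi-likelihood test of edgeR, against 9 of 13479 genes tested (0.0668%). At an unadjusted p under 0.05 there were 3, *Vegfa*, *Flt1* and *Flt4*, against 11.8% of all genes tested. The same 3 were the only VEGF genes whose *Nhe6*-knockout and wildtype values did not overlap, a state that 19.9% of all genes shared. *Vegfa* and *Flt4* lay above the wildtype values (10.3% of all genes) and *Flt1* below them (9.57%). The Wald test of DESeq2 gave no p for *Pgf* and *Nrp2*. Among the other 8 VEGF genes it called *Flt1* alone, with 593 of 14879 genes called in all (3.99%). Limma-voom called none of the 10 (0.0742% of all genes). The exact two-sided permutation p of each of the 3 genes was 0.1, the smallest that 3 cultures against 3 allow. P-values measure the spread between the cultures, for which nothing beyond the pooling above is stated. With the closely alike *Nhe6*-knockout replicates 1 and 2 summed into 1 library, the edgeR adjusted p was 0.846 for *Vegfa*, 0.686 for *Flt1* and 0.858 for *Flt4*.

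**Figure D1:**
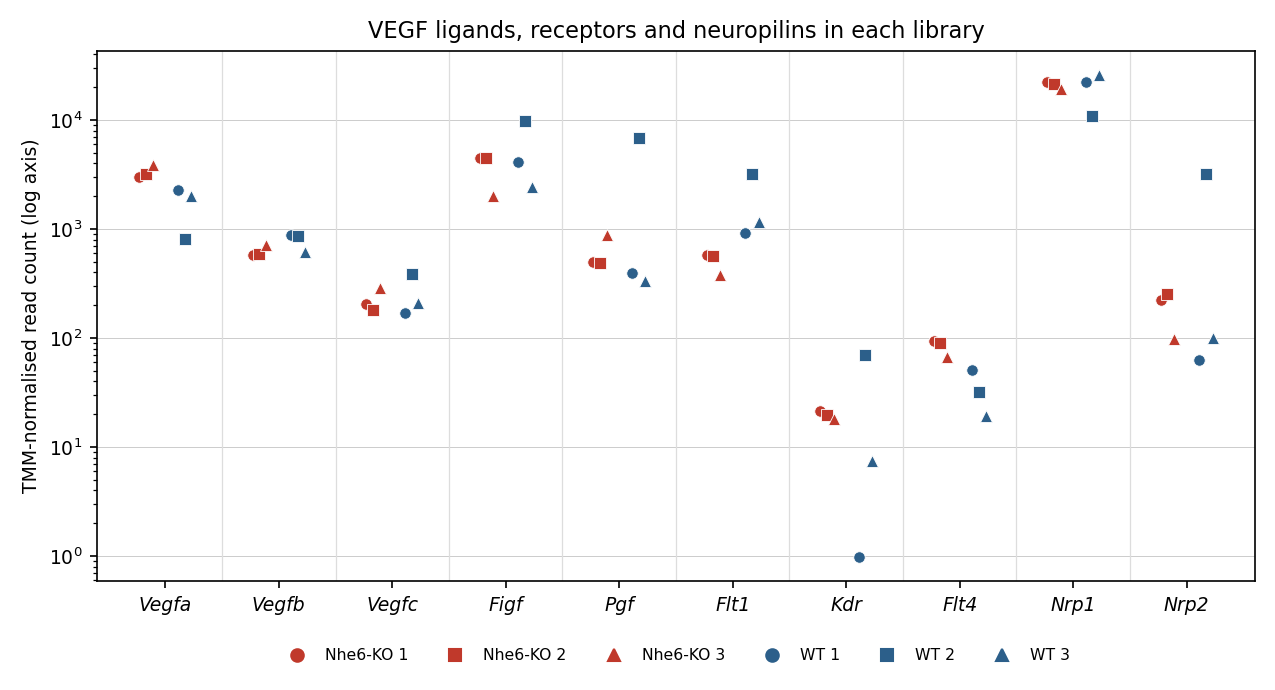
Normalised read counts (log axis) of the 10 VEGF genes, with 1 point per library, red for *Nhe6*-knockout and blue for wildtype, and circle, square and triangle for replicates 1, 2 and 3. *Vegfa* and *Flt4* points in red lie above all blue ones and *Flt1* points below them, and the blue square of wildtype replicate 2 lies far above the other libraries for *Pgf* (6801) and *Nrp2* (3173).

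*Vegfa*, the main angiogenic ligand, lies on chromosome 17 from 46016993 to 46032369 on the minus strand (GRCm38, GENCODE M21). It had 3009, 3206 and 3834 normalised counts in *Nhe6*-knockout replicates 1, 2 and 3, and 2281, 807 and 2027 in the wildtype replicates. Every *Nhe6*-knockout culture lay above every wildtype culture, and wildtype replicate 2 was the lowest of all. The means were 3350 ± 431 and 1705 ± 788 (SD, n = 3), and the log2 fold change of 0.97 ± 0.38 (SE) had an edgeR adjusted p of 0.387. Without wildtype replicate 2 it was 0.63 ± 0.15 with an adjusted p of 0.0884, and over the 14 alternatives it ranged from 0.63 to 1.24.

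*Vegfb*, a ligand of FLT1 linked to fatty acid uptake and vessel survival (chromosome 19, 6982473 to 6987651), had 576, 592 and 713.5 normalised counts in *Nhe6*-knockout and 888, 859 and 611 in wildtype cultures. Wildtype replicate 3 fell among the *Nhe6*-knockout values, so the genotypes overlapped. Its log2 fold change was -0.33 ± 0.19 (edgeR adjusted p = 0.571, 95% interval -0.79 to 0.14).

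*Pgf*, which encodes PlGF (chromosome 12, 85166635 to 85177790), had 500.0, 487 and 878 normalised counts in *Nhe6*-knockout and 393, 6801 and 333 in wildtype cultures. Wildtype replicate 2 held 18.7 times the mean of the other 2 wildtype libraries, and those 2 lay below every *Nhe6*-knockout culture. The log2 fold change turned from -2.01 ± 1.19 with all libraries (edgeR adjusted p = 0.572) to 0.77 ± 0.31 without that culture (adjusted p = 0.242).

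The lymphatic ligand genes overlapped between genotypes. *Vegfc* (chromosome 8, 54077606 to 54187096) had 206, 181 and 286 normalised counts in *Nhe6*-knockout and 169, 389 and 208.5 in wildtype cultures, with a log2 fold change of -0.19 ± 0.37 (edgeR adjusted p = 0.887). *Figf*, which encodes VEGF-D (chromosome X, 164373378 to 164402650), had 4447, 4457 and 1995 against 4160, 9791 and 2439, with -0.59 ± 0.56 (adjusted p = 0.747). Wildtype replicate 2 was again the highest library for both, and without it the log2 fold changes were 0.24 and 0.13.

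*Flt1* is the receptor with the lowest p of the 10 genes (rank 582 of 13479) and lies on chromosome 5 from 147561604 to 147726011 on the minus strand. It had 577.5, 561 and 377.5 normalised counts in *Nhe6*-knockout and 920, 3174 and 1150 in wildtype cultures. All wildtype cultures lay above all *Nhe6*-knockout cultures, and wildtype replicate 2 was the highest. The means were 505 ± 111 and 1748 ± 1240 (SD, n = 3), a 3.46-fold lower mean in *Nhe6*-knockout, and the log2 fold change was -1.79 ± 0.50 (edgeR adjusted p = 0.242). DESeq2 gave -1.80 with an adjusted p of 0.0105, while without wildtype replicate 2 edgeR gave -1.04 ± 0.22 with an adjusted p of 0.0725. Reads were counted per gene, so membrane-bound and soluble *Flt1* transcripts cannot be told apart here.

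*Kdr*, the main signalling receptor of VEGF-A in endothelium, lies on the same chromosome from 75932827 to 75978458. On the mean over all libraries it was the least abundant of the 10 genes. It had 20, 21 and 19 reads in the *Nhe6*-knockout libraries and 1, 68 and 7 in the wildtype libraries. The *Nhe6*-knockout cultures were nearly alike, whereas wildtype ranged from a single read to the highest value of all. Its log2 fold change was -0.42 ± 1.18 with all libraries (edgeR adjusted p = 0.928, 95% interval -3.27 to 2.43) and 2.20 ± 0.74 without wildtype replicate 2 (unadjusted p = 0.0249, adjusted p = 0.183).

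*Flt4*, the receptor of VEGF-C and VEGF-D (chromosome 11, 49609263 to 49652739), had 93.4, 90.1 and 67.2 normalised counts in *Nhe6*-knockout and 50.8, 32.0 and 19.3 in wildtype cultures. The genotypes did not overlap, and wildtype replicate 2 lay between the other 2 wildtype libraries. The log2 fold change was 1.29 ± 0.43 (edgeR adjusted p = 0.320), and at 1.24 ± 0.47 (adjusted p = 0.224) it was close to this without wildtype replicate 2.

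*Nrp1*, a co-receptor of VEGF-A (chromosome 8, 128358604 to 128503363), had 22450, 21270 and 19450 normalised counts in *Nhe6*-knockout and 22570, 10960 and 25990 in wildtype cultures. Wildtype replicate 2 held less than any other library, and the log2 fold change was 0.09 ± 0.32 (edgeR adjusted p = 0.946, 95% interval -0.70 to 0.87). *Nrp2*, a co-receptor of VEGF-C and VEGF-D (chromosome 1, 62703285 to 62818695), had 225, 254 and 97.5 against 63.5, 3173 and 100.5. Wildtype replicate 2 held 38.7 times the mean of the other wildtype libraries, the widest such gap among the 10 genes, and the log2 fold change of *Nrp2* turned from -2.53 ± 1.47 (adjusted p = 0.564) to 1.22 ± 0.47 without it (adjusted p = 0.235). An exon of *Nrp1* overlaps the microRNA gene *Mir1903* on the same strand, and an antisense gene lies across *Nrp2* without overlap of exons.

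**Figure D2:**
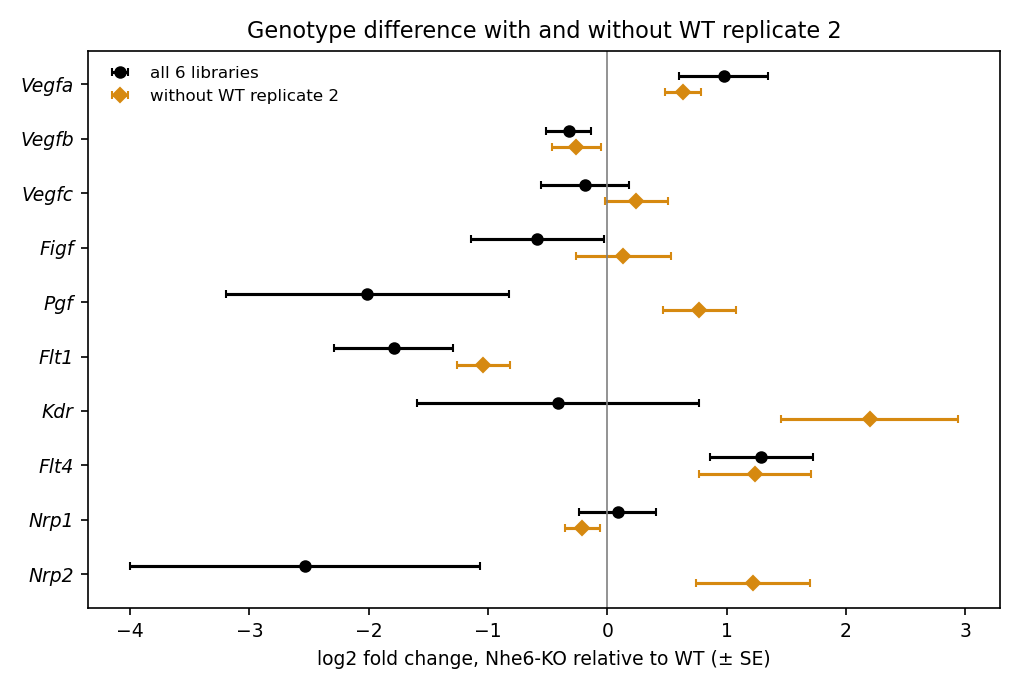
Log2 fold change of each VEGF gene in *Nhe6*-knockout relative to wildtype cultures (horizontal axis), with bars for the standard error, in the edgeR fit to all 6 libraries (black circles) and in the fit without wildtype replicate 2 (orange diamonds). *Vegfa*, *Vegfb*, *Flt1* and *Flt4* keep their side of 0, while *Pgf* goes from -2.01 to 0.77 and *Nrp2* from -2.53 to 1.22.

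Wildtype replicate 2 was the highest library for 6 of the 10 genes and the lowest for 2, together 8 of 10, against 53.3% of all genes tested. *Flt4* and *Vegfb* were the exceptions. The wildtype coefficient of variation was 160% for *Nrp2*, 148% for *Pgf* and 146% for *Kdr*, against 43.3%, 35.7% and 8.32% in the *Nhe6*-knockout cultures. Without this culture 6 of the 10 genes did not overlap between genotypes, against 38.2% of all genes, with *Vegfa*, *Pgf*, *Kdr* and *Flt4* higher (18.9% of all genes) and *Flt1* and *Nrp1* lower in *Nhe6*-knockout (19.3%). In that fit 0 of the 10 had an edgeR adjusted p under 0.05 (2.88% of all genes), and 6 had an unadjusted p under 0.05 (19.5%).

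Levels of different genes were compared as RPKM, the reads on a gene scaled to the length of its exons and to the library total. *Nrp1* had the highest mean RPKM of the 10 genes over the 6 libraries (75.9, above 96.3% of the genes tested), followed by *Figf* (68.6), *Vegfa* (21.4), *Pgf* (19.6), *Vegfb* (16.0), *Vegfc* (3.56), *Flt1* (3.03), *Nrp2* (2.00), *Flt4* (0.259) and *Kdr* (0.0920, above 1.45%). Of the 9 pairs of neighbours in this order, only *Vegfb* (13.0 to 20.1 RPKM) and *Vegfc* (2.51 to 5.76 RPKM) did not overlap in their range over libraries. Without wildtype replicate 2, an alternative chosen after seeing the data, the mean RPKM was 6.48 for *Pgf*, which then ranked below *Vegfb* (15.3), and 1.93 for *Flt1*, 0.454 for *Nrp2* and 0.0540 for *Kdr*, with the other ranks as before. *Pgf* was above *Vegfb* in 1 of the 6 libraries. The order of *Vegfa* and *Pgf* turned when the longest transcript was taken as the length, as did that of *Vegfc* and *Flt1*. The 3 receptor genes summed to 1.38 to 2.05 RPKM in *Nhe6*-knockout and 2.70 to 8.95 in wildtype libraries, and the 5 ligand genes to 93.9 to 116.5 and 75.0 to 265.

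*Flt1* made up most of the receptor RPKM in every library. Its share was 75.7%, 76.0% and 73.4% in the *Nhe6*-knockout and 91.6%, 95.3% and 96.4% in the wildtype libraries, while that of *Flt4* was 20.1%, 20.0% and 21.4% against 8.30%, 1.57% and 2.65%. The shares of the 2 receptors did not overlap between genotypes in either case. The RPKM of *Vegfa* divided by that of *Flt1*, the ligand and its decoy receptor, was 16.4, 18.0 and 32.0 in *Nhe6*-knockout and 7.81, 0.801 and 5.56 in wildtype libraries. This ratio could not overlap between genotypes, since *Vegfa* lay above and *Flt1* below every wildtype value. These shares and ratios use the same counts as the comparisons above and were not tested apart from them.

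Among the ligands *Figf* had the largest share of the RPKM in 5 of the 6 libraries, from 49.0% to 58.4%, and *Vegfa* exceeded it in *Nhe6*-knockout replicate 3 (34.6% against 32.0%). The share of *Vegfa* was 22.2% and 23.3% in the other *Nhe6*-knockout libraries and 17.6%, 2.58% and 22.9% in the wildtype libraries. *Pgf* held 32.1% of the ligand RPKM in wildtype replicate 2 and 4.49% to 11.7% elsewhere. *Nrp2* held 19.3% of the neuropilin RPKM in that library and under 1% in each of the others.

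**Figure D3:**
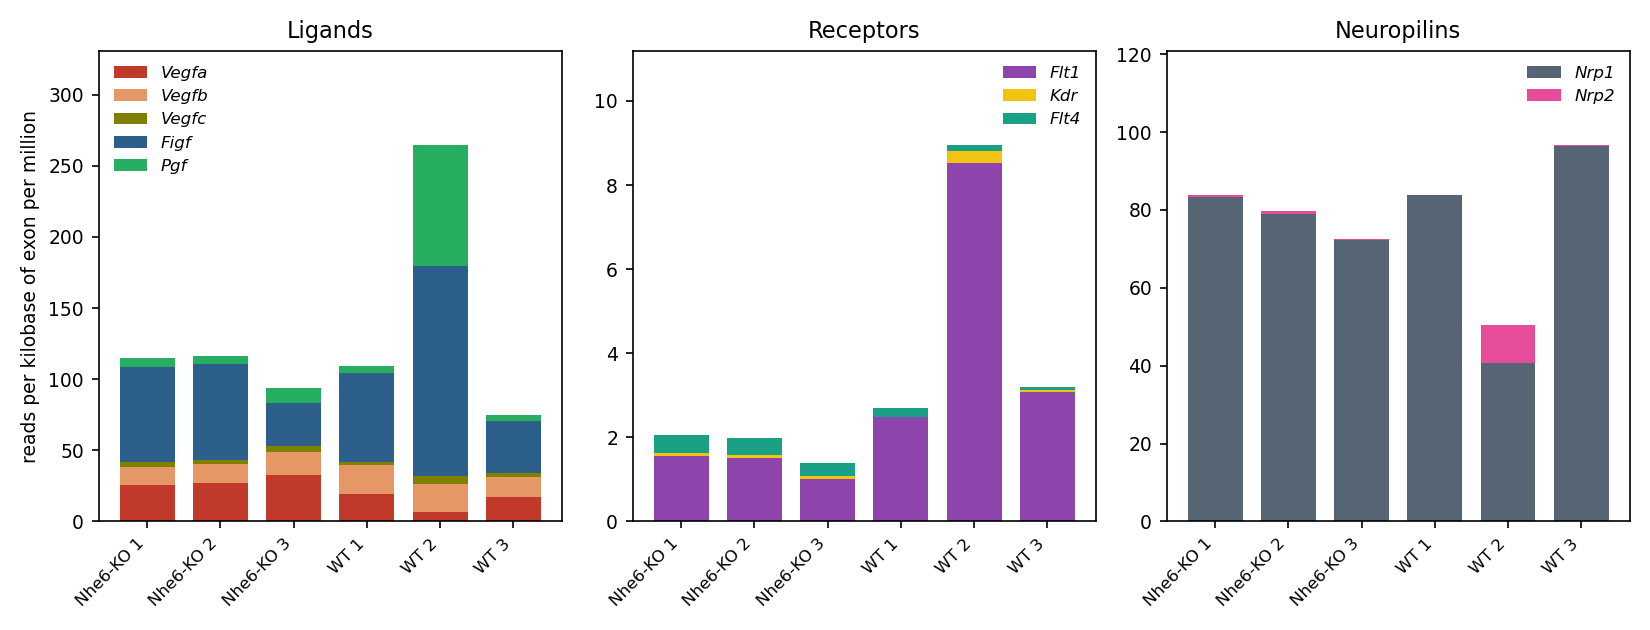
Level per length (RPKM) of the ligand, receptor and neuropilin genes, stacked in 1 bar per library, with a vertical scale of its own in each panel. Receptor bars reach 2.05 in *Nhe6*-knockout and 8.95 in wildtype libraries, ligand bars reach 265 in wildtype replicate 2, and *Nrp1* fills nearly all of each neuropilin bar except in that library.

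Promoter sequences were taken from RefSeq (GRCm38.p6), as the 250 bases upstream of the first listed start of each gene, and all 10 genes were matched by symbol. Those of *Vegfa* and *Flt1*, the ligand and the receptor whose values lay on opposite sides of wildtype without overlap, are printed 5′ to 3′ on the strand of the gene (minus in both), with motif matches in capitals. The *Vegfa* stretch is chr17:46032378-46032627 and the *Flt1* stretch is chr5:147726012-147726261.
*Vegfa*: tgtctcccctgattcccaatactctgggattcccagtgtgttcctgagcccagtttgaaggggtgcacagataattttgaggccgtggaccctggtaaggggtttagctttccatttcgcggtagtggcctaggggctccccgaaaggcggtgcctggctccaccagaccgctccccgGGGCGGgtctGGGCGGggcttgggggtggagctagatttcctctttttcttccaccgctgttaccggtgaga
*Flt1*: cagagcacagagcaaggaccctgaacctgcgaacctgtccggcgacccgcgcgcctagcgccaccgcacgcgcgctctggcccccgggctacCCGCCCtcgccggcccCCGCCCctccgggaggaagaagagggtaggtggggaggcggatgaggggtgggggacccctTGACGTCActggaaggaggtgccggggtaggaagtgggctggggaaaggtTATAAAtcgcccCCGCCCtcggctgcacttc

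The capitals mark GC boxes (GGGCGG, or CCGCCC on the other strand) in both, and in *Flt1* also a cyclic AMP response element (CRE, TGACGTCA) and a TATA box (TATAAA). Counted from the first transcribed base, the *Vegfa* GC boxes begin at -72 and -62, and in *Flt1* the GC boxes begin at -158, -142 and -19, the CRE at -81 and the TATA box at -31. GC boxes were found in 9 of the 10 promoters, all but *Figf*, against 32.9% of 27025 windows of the same length. Of the 10 windows 6 overlapped the GENCODE span of their own gene, those of *Pgf*, *Flt4* and *Nrp1* lying wholly inside it. The 4 that did not (*Vegfa*, *Vegfb*, *Vegfc* and *Flt1*) each held a GC box. Overlap of the windows with other genes was not checked. TATAAA was found in *Figf* and *Flt1* (13.0% of all promoters, either strand) and TGACGTCA in *Flt1* (1.62%). The hypoxia response core ACGTG and the AP-1 site TGACTCA were in none of the 10 windows, against 16.6% and 4.43% of all promoters on either strand, which says only that these letters are not there. The promoters of the 10 genes held 42.4% to 76.4% G and C, against a median of 52.0% over all promoters.

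The other genes of the pathway were described by 6 lists with 164 genes, of which 150 were tested and 0 had an adjusted p under 0.05 in edgeR. DESeq2 called 12 of them (3.99% of all genes), and edgeR called 5 without wildtype replicate 2, a share close to the 2.88% of all genes. The median log2 fold change over all genes tested was -0.02.

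Of the 44 genes that relay the signal of VEGF receptors, 41 were tested, with 16 log2 fold changes above and 25 below 0 and a median of -0.11. *Mapk3* (ERK1) had 6710 to 7176 normalised counts in *Nhe6*-knockout and 8038 to 10810 in wildtype cultures, without overlap (-0.50 ± 0.16, edgeR adjusted p = 0.294). *Pik3r1*, which encodes a regulatory subunit of PI3-kinase, had 0.52 ± 0.43 and overlapped between genotypes. The endothelial nitric oxide synthase gene *Nos3* had at most 10 reads in a library and was not tested.

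Among the 26 genes of VEGF receptor trafficking and phosphatases, 25 were tested, with a median of -0.14. *Cav1* (caveolin-1, the coat protein of caveolae) had 4387, 4299 and 4465 normalised counts in *Nhe6*-knockout and 15280, 6817 and 22240 in wildtype cultures. The *Nhe6*-knockout values were tightly grouped below all wildtype values (-1.75 ± 0.41, edgeR adjusted p = 0.162), and without wildtype replicate 2 *Cav1* fell by 2.10 on the log2 scale (adjusted p = 0.0140). The kinesin gene *Kif13b*, which is known to carry KDR to the cell surface, had 1586 to 2426 against 3202 to 4330 (-0.89 ± 0.21, adjusted p = 0.160). The recycling GTPase gene *Rab4a* (-0.63 ± 0.24) overlapped between genotypes, whereas the receptor phosphatase gene *Ptprj* (0.71 ± 0.36) did not. *Cav1* and *Kif13b* passed the threshold in DESeq2, with adjusted p of 0.00109 and 0.0131.

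Of 34 VEGF-induced and tip cell genes, 28 were tested, with a median of -0.10. *Unc5b*, a netrin receptor of tip cells, had 2193, 2163 and 4725 normalised counts in *Nhe6*-knockout and 801, 1153 and 797 in wildtype cultures (1.72 ± 0.36, edgeR adjusted p = 0.125). *Angpt2*, an antagonist ligand of the receptor TEK, lay lower without overlap, at 801.5 to 1337 against 1471 to 5286 (-1.54 ± 0.52, adjusted p = 0.327), and at -0.75 ± 0.26 without wildtype replicate 2. The early response genes *Dusp1* (-1.60 ± 0.58) and *Nr4a3* (-1.57 ± 1.41, or -0.26 without wildtype replicate 2) had adjusted p of 0.363 and 0.731. The tip cell genes *Dll4*, *Cxcr4*, *Pdgfb* and *Aplnr* had too few reads to be tested, so the list was read without them. DESeq2 called *Unc5b* and *Dusp4* higher, and edgeR without wildtype replicate 2 called *Adamts1* lower. With all libraries *Adamts1* overlapped between genotypes and had -0.42 ± 0.60 (edgeR adjusted p = 0.842).

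The hypoxia list, of genes that respond to or regulate the HIF factors that also act on *Vegfa*, had 32 of 33 genes tested and a median of -0.02, with 15 log2 fold changes above and 17 below 0. *Hk2* (hexokinase 2) had 608, 622 and 802 normalised counts in *Nhe6*-knockout and 327.5, 220 and 333 in wildtype cultures (1.21 ± 0.22, edgeR adjusted p = 0.109). *Ldha* (lactate dehydrogenase A) had 24340, 24260 and 22770 against 11200, 15630 and 12820 (0.85 ± 0.18, adjusted p = 0.125), and *Epas1*, which encodes HIF-2α, had 5479, 5462 and 2912 against 2532, 1959 and 2134 (1.06 ± 0.27, adjusted p = 0.192). None of these 3 overlapped between genotypes, while *Vldlr* (0.84 ± 0.47) did. Without wildtype replicate 2 *Hk2* and *Ldha* passed the threshold in edgeR (adjusted p = 0.0473 and 0.0340), and DESeq2 called them and *Epas1* with all libraries. *Eno1* was listed at 0 in every library, and since it encodes an enzyme of glycolysis that all cells use, a 0 in this table is not by itself a sign that a gene was off.

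Of the 15 lymphatic growth genes, 12 were tested, with a median of 0.20, and *Prox1*, the master gene of lymphatic identity, had at most 8 reads. *Ccbe1*, which is needed to activate VEGF-C, had 1534 to 2857 normalised counts in *Nhe6*-knockout and 1649, 43.3 and 1221 in wildtype cultures (1.29 ± 1.03, edgeR adjusted p = 0.688). *Foxc2* (828.6 to 1193 against 1551 to 3543, adjusted p = 0.260) and *Pdpn* (2106 to 2833 against 3854 to 7624, adjusted p = 0.268) lay lower without overlap, with -1.23 ± 0.36 and -1.01 ± 0.30. Of this list DESeq2 called *Foxc2* alone, as lower (adjusted p = 0.0378). *Svep1* had 0.70 ± 0.37 with overlap.

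All 12 genes of the neuropilin partners, the class 3 semaphorins and the plexins that signal with neuropilins, were tested, and 6 of them did not overlap between genotypes, 3 in each direction, against 19.9% of all genes tested (10.3% higher and 9.57% lower). The median was 0.12. *Sema3c* had 345, 346 and 641 normalised counts in *Nhe6*-knockout and 837, 18250 and 983 in wildtype cultures (-3.91 ± 1.32, edgeR adjusted p = 0.323), and -1.04 without wildtype replicate 2. *Sema3d* had 525.5, 461 and 298 against 889, 6623 and 1663 (-2.84 ± 0.77, adjusted p = 0.224), and -1.58 ± 0.34 without that library. Both lay lower in every *Nhe6*-knockout culture, with the same wildtype library far above the rest.

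*Sema3e*, whose protein signals through plexin D1, had 2048, 1980 and 1361 normalised counts in *Nhe6*-knockout and 542.5, 434 and 980 in wildtype cultures (1.46 ± 0.34, edgeR adjusted p = 0.161). Its receptor gene *Plxnd1* had 1758, 2007 and 2884 against 1023, 262 and 1108 (1.47 ± 0.53, adjusted p = 0.354), so the ligand and the receptor lay higher in every *Nhe6*-knockout culture. DESeq2 called *Sema3e* and *Sema3g* higher and *Sema3d* and *Sema3f* lower. *Sema3a*, the classical ligand of *Nrp1*, had 850 to 871.5 against 694 to 917 and a log2 fold change of 0.09 ± 0.14 (edgeR adjusted p = 0.855). *Plxna1* passed the threshold in edgeR without wildtype replicate 2 (0.78, adjusted p = 0.0452). With all libraries it overlapped between genotypes and had 0.20 ± 0.38 (edgeR adjusted p = 0.880).

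**Figure D4:**
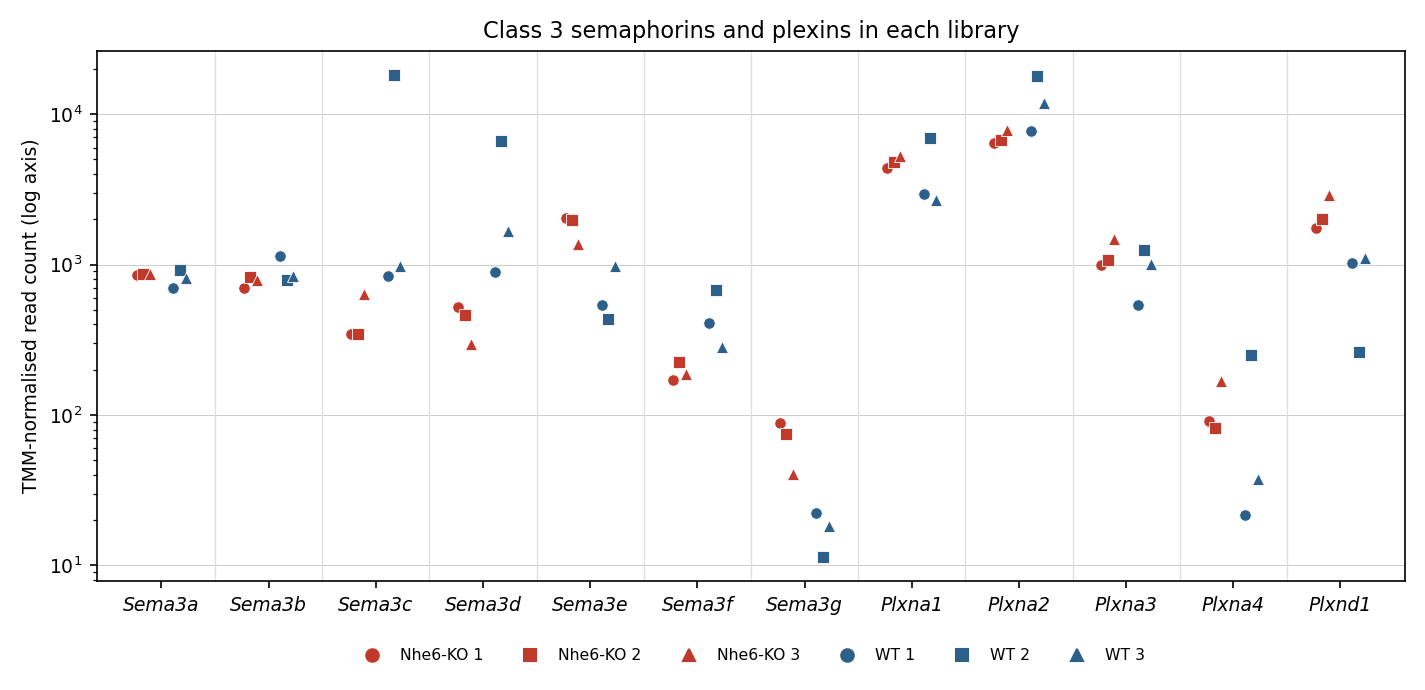
Normalised read counts (log axis) of 7 class 3 semaphorin genes and 5 plexin genes, with 1 point per library, red for *Nhe6*-knockout and blue for wildtype, and circle, square and triangle for replicates 1, 2 and 3. *Sema3e*, *Sema3g* and *Plxnd1* lie higher in red and *Sema3c*, *Sema3d* and *Sema3f* lower, with wildtype replicate 2 at 18250 for *Sema3c*.

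For each VEGF gene the genes most like it were sought by Pearson's r of log2 CPM over the 6 libraries, among about 11126 genes with a mean of at least 100 normalised counts. *Brinp1* and *Grip1* were most like *Vegfa* (r = 0.999 and 0.996), *Sema3d* and *Pomk* most like *Flt1* (0.996 and 0.993), and *Rpl7a* and *Gys1* most like *Flt4* (0.994 and 0.991). For the other ligands these were *Cyhr1* and *Chrd* (*Vegfb*), *Cand1* and *Slc39a6* (*Vegfc*), *Slc31a2* and *Ang* (*Figf*), and *Serpinb9b* and *Pkd1* (*Pgf*). For the remaining receptors they were *Layn* and *Atf7* (*Kdr*), *Srsf1* and *A830082K12Rik* (*Nrp1*), and *Gm15698* and *Akap13* (*Nrp2*). Each r was at least 0.990, and since it rests on 6 libraries, 1 of which lies apart for most genes, it only describes these libraries.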

How the data were processed

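The authors deposited raw read counts per gene symbol for 6 libraries. They were poly(A)-enriched, stranded and sequenced for 75 cycles. The submitters' processing notes list bcl2fastq 2.20.0.422, STAR 2.7.7a, HTSeq 0.13.5, DESeq2 1.26.0 and mm10, and the strand setting and annotation of the counting are not given in the sources used here. The 5 summary lines of the table (22.2% of all counts) were left out. In R 4.3.3, edgeR (version 4.0.16) was used for the filter (filterByExpr, minimum count 10), TMM scaling and a two-sided quasi-likelihood test (genotype alone, Benjamini-Hochberg over 13479 genes, threshold 0.05). The SE is the log2 fold change divided by the square root of F. DESeq2 1.42.0 (p and adjusted p missing for *Pgf* and *Nrp2*) and limma-voom (3.58.1) were alternatives, and all were tested on simulated counts. RPKM used exon unions of GENCODE M21.

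The members and lists were chosen with earlier results of these data known. Beside the 10 members, the text names *Hprt*, called genes, up to 4 genes per list with the largest fold changes and a mean of at least 100 normalised counts, leading cell type markers and the 2 genes most like each member. *Nos3*, *Prox1*, *Eno1*, the untested tip cell genes, *Dusp4*, *Adamts1*, *Sema3a*, *Sema3f*, *Sema3g*, *Plxna1*, *Robo4* and *Sox17* were chosen after their values were seen. Some genes that this rule names are not reported here.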

Additional observations from a re-analysis of the deposited data

How the results depend on the processing

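*Vegfa*, *Vegfb*, *Flt1* and *Flt4* kept the direction of their log2 fold change under all 14 alternatives. No VEGF gene had an adjusted p under 0.05 in any of them, except *Flt1* in DESeq2 (-1.80), so the number of VEGF genes called was 1 there. DESeq2 called 593 genes in all and 12 of the pathway lists. The number of genes called over the whole table was 21 without a filter, 21 with at least 10 counts in every library, 2 with a block for the replicate number, 1 with *Nhe6*-knockout replicates 1 and 2 summed, and 0 to 395 when 1 culture was left out, with 395 without wildtype replicate 2 and at most 4 otherwise. Leaving out 1 culture gave 3 to 6 VEGF genes without overlap and 0 to 5 pathway genes called, the highest again without wildtype replicate 2. In that fit 38.2% of all genes did not overlap, against 19.9% with all libraries, and 2.88% of all genes were called. The share without overlap over all genes was not computed for the other cultures left out. That culture alone turned the direction of *Vegfc* (-0.42 to 0.24 over the cultures left out), *Figf* (-0.95 to 0.13), *Pgf* (-2.54 to 0.77), *Kdr* (-0.99 to 2.20), *Nrp1* (-0.21 to 0.32) and *Nrp2* (-3.10 to 1.22), and the cause was not tested. *Kdr* also turned in limma-voom (1.11) and with the replicate block (0.83), and it could not be fitted with at least 10 counts in every library, since it had 1 read in a wildtype library. Correlations of the deviations from the genotype mean were 0.21, -0.18 and 0.12 between same-numbered cultures. The highest was 0.38, between *Nhe6*-knockout replicate 2 and wildtype replicate 1. With 3 cultures per genotype these values cannot decide whether the replicate numbers pair the cultures. With the longest transcript as the length, the mean level was 20.0 RPKM for *Vegfb*, 5.93 for *Flt1* and 204 for *Nrp1*. *Kdr* had 1 to 68 reads per library, the fewest of the 10 genes in each library except wildtype replicate 2, where *Flt4* had 31.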
